A study of Rattus norvegicus with 14 samples.

Results

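Genes that the kidney raises on damage and genes that draw leukocytes into it were followed as 1 panel of 7. The panel holds Havcr1 (ENSRNOG00000007243), Lcn2 (ENSRNOG00000013973), Spp1 (ENSRNOG00000043451), Clu (ENSRNOG00000016460), Ccl2 (ENSRNOG00000007159), Icam1 (ENSRNOG00000020679) and Vcam1 (ENSRNOG00000014333), chosen by Ensembl ID from the deposited count table. All 7 IDs were present, out of 12934 in the table, and none was absent. The symbols are those paired with the IDs when the set was drawn up. No other gene could be named, since 0 of the 12934 IDs had an entry in the rat reference table.

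Transcripts were counted in cortical glomeruli sieved from the kidneys of male rats of the strain Dahl SS/JrHsdMcwiCrl, the inbred salt-sensitive line whose blood pressure rises on a salt-rich diet. One group of 7 libraries came from rats on 4% NaCl (high salt) and the other 7 from rats on 0.4% NaCl (normal salt), each for 21 days from 8 weeks of age. No genotype, drug or other treatment is named for either group, and both are the salt-sensitive strain, with no salt-resistant control among these libraries. Each library carries a sample number from 9 to 24, odd on high salt and even on normal salt. The labels say neither what this number records nor whether each library came from its own rat, so each p-value reflects how these libraries scatter, which may be technical.

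The 14 libraries held 13797146 to 18151197 counts. Levels are given as CPM, the depth-normalised count, here after TMM scaling, which allows for differences in composition. The TMM factors ran from 0.66 in high salt library 15 to 1.29 in high salt library 21, the libraries in which the 10 most abundant genes took the most (65.02%) and the fewest (30.99%) of the counts. The libraries are 3′ tag libraries, with reads placed close to the 3′ end of each transcript, so a count should depend little on transcript length and levels of different genes are compared as CPM of tags. Glomerular and tubular marker genes could not be looked up, since 0 of the planned markers matched an ID, and the tissue label was not checked. In such bulk tissue, fewer cells of a type and less RNA per cell cannot be told apart.

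Havcr1, Lcn2, Spp1 and Clu are classical injury genes. Havcr1 encodes kidney injury molecule, a receptor that damaged proximal tubule cells put on their surface and use to take up dying cells. Lcn2 encodes lipocalin-2 (NGAL), an iron-carrier-binding protein made by stressed tubules and by neutrophils. Spp1 encodes osteopontin, a secreted phosphoprotein that binds integrins, and Clu encodes clusterin, a secreted chaperone. The other genes act in leukocyte recruitment. Ccl2 encodes the chemokine MCP, which attracts monocytes, and Icam1 and Vcam1 encode adhesion molecules that endothelium and mesangium display to leukocyte integrins. Transcription of Ccl2, Icam1 and Vcam1 is known to respond to the NF-kappaB transcription factors.

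The promoters of Lcn2, Spp1, Icam1 and Vcam1 are shown because the results turn on how these genes varied against one another between libraries. Each line gives the 250 bases before the RefSeq gene start (build GRCr8), 5′ to 3′ on the strand of the gene. Capitals mark matches, on either strand, to GGGNNNNNCC, the fixed letters of the usual NF-kappaB site. Sites that differ from these letters at any position were left in lower case. Matches that overlapped or fell on both strands were merged into 1 stretch.
Lcn2, chr3:36081781-36082030, - strand: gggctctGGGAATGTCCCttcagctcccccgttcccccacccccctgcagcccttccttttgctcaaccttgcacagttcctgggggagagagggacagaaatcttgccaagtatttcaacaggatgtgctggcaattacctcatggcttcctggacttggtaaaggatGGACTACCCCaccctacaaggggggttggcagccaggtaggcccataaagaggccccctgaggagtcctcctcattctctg
Spp1, chr14:5619805-5620054, - strand: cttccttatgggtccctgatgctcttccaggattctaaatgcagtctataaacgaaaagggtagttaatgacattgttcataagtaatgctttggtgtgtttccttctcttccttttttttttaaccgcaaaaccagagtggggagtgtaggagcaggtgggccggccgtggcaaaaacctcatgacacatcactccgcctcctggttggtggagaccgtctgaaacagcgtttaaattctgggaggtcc
Icam1, chr8:27829595-27829844, + strand: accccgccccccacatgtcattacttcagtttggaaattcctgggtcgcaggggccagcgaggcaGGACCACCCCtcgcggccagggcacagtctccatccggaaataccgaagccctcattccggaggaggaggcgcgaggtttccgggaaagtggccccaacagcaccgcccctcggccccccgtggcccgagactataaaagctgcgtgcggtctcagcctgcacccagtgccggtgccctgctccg
Vcam1, chr2:206742784-206743033, - strand: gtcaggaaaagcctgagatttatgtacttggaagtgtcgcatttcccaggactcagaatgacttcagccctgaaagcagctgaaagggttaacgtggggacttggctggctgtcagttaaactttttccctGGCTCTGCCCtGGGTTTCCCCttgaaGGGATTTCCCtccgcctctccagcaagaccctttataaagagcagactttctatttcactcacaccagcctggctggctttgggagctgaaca

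RefSeq promoters were found for 5 of the 7 genes, and Clu and Ccl2 had no entry. In this window Vcam1 held 3 marked stretches, the one nearest the gene beginning 93 bases before the start, Lcn2 held 2 and Icam1 held 1. Spp1 and Havcr1 held 0. These counts cover exact matches to the letters only, so other NF-kappaB sites may lie in the unmarked bases. The motif is common, with a match in 42.3% of 33469 rat promoters of the same length, so 3 of 5 is a description of these sequences only. TATAAA, on either strand, was present in 3 of the 5 (Spp1, Icam1 and Vcam1) and in 12.9% of all promoters. The Spp1 match lay much farther from the gene start than those of Icam1 and Vcam1. This too only describes these sequences, and enrichment was not tested.

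The genes spanned a wide range of levels. Spp1 was the most abundant at a mean of 449.2 CPM, rank 139 of 12934 genes. Clu came next at 373 CPM (rank 196), then Icam1 at 47.6 CPM, Vcam1 at 39.7 CPM, Lcn2 at 16.2 CPM, Ccl2 at 7.07 CPM and Havcr1 at 1.09 CPM (rank 10580). Some neighbours in this order overlapped widely. Spp1 exceeded Clu in 10 of 14 libraries, and Icam1 exceeded Vcam1 in 9 of 14. Clu exceeded Icam1 in 14 of 14 libraries, Lcn2 exceeded Ccl2 in 14 of 14 and Ccl2 exceeded Havcr1 in 14 of 14, while Vcam1 exceeded Lcn2 in 13 of 14.

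**Figure D1:**
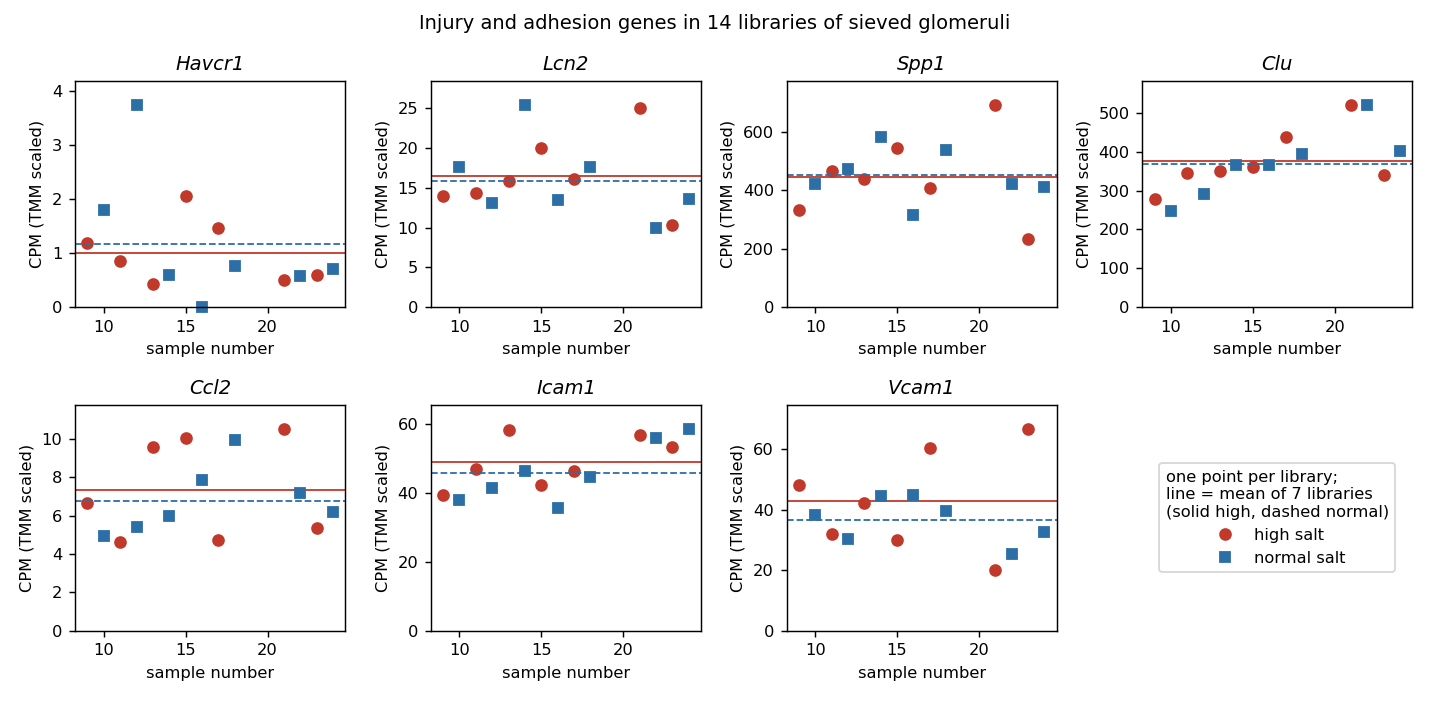
Level of each gene (CPM after TMM scaling, linear axes from 0) against the sample number, with 1 point per library, circles for high salt, squares for normal salt, and lines at the mean of the 7 libraries of each diet. The ranges of the diets overlap in each panel, and how often they do so over all genes was not counted. Clu has its highest values at numbers 21 and 22. High salt libraries 21 and 23 hold the highest and the lowest Spp1 (692.1 and 232.8 CPM).

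None of the 7 genes passed the test for a difference between the diets. The background was the same, with 0 of 11158 genes (0%) called by edgeR's quasi-likelihood test at a Benjamini-Hochberg adjusted p below 0.05. At an unadjusted p below 0.05, edgeR listed 0 of the 7 genes and 202 of all genes (1.81%). That share is smaller than evenly spread p-values would give at this threshold, and the reason was not tested. DESeq2 and limma also called 0 genes, and DESeq2 listed 343 of 12934 at an unadjusted p below 0.05. The lowest adjusted p over all genes was 0.9997, so each adjusted p of the 7 genes is at or above this value. The median log2 fold change (high salt over normal salt) was 0.062 over the 7 genes and -0.002 over all genes. Their median absolute log2 fold change was 0.099, beside 0.108 over all genes. In 5 of the 7 genes the estimate was above 0, as it was in 49.5% of all genes.

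Among the injury genes, Havcr1 was close to the limit of counting. High salt libraries ran from 0.427 CPM through a median of 0.851 to 2.05 CPM, and normal salt libraries from 0 through 0.707 to 3.73 CPM. The highest and the lowest library were both on normal salt, and the high salt values lay inside the normal salt range. Normal salt library 12 held 55 counts (95% exact Poisson interval 41.4 to 71.6) and normal salt library 16 held 0 (exact Poisson interval 0 to 3.69). The customary limit for a count of 0 is 3 counts, here 0.191 CPM. These intervals and the limit cover counting error only. The mean over 7 libraries was 1.01 ± 0.593 CPM (SD) with high salt and 1.17 ± 1.25 CPM (SD) with normal salt. The log2 fold change was -0.23, with a 95% interval from -1.53 to 1.06, so a 2-fold difference in either direction lay within the limits. Its sign turned with single libraries: without normal salt library 12 the estimate was 0.42. On the scale of mean log2 CPM the difference was 0.23 (exact permutation test over 3432 splits, two-sided, p = 0.74), and it was -0.23 without normal salt library 16.

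Lcn2 ran from 10.3 through a median of 15.9 to 25.1 CPM with high salt and from 9.98 through 13.6 to 25.4 CPM on normal salt. High salt library 21 and normal salt library 14 stood at nearly the same high level, and the high salt values lay inside the normal salt range. High over normal salt, the log2 fold change was 0.06 (95% interval -0.38 to 0.50), which leaves out a 1.5-fold rise or fall. The sign turned to -0.05 without high salt library 21 and to -0.02 without normal salt library 22.

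Spp1 ran from 232.8 through 439.3 to 692.1 CPM with high salt and from 317.4 through 423.4 to 582.6 CPM on normal salt. High salt library 23 was the lowest of all 14 and high salt library 21 the highest, so the high salt group enclosed the normal salt group at both ends. The SD was 147.4 CPM with high salt and 88.3 CPM on normal salt (n = 7 each), a difference in spread that was not tested. The log2 fold change was -0.02 (95% interval -0.44 to 0.39). It was 0.09 without high salt library 23 and -0.15 without high salt library 21. Single omissions also turned it to 0.04 without high salt library 9, 0.04 without normal salt library 14 and 0.02 without normal salt library 18.

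Clu ran from 279.1 through 349.9 to 519.5 CPM with high salt and from 246.9 through 366.7 to 519.5 CPM on normal salt. The highest value was reached once on each diet, in libraries 21 and 22. Between the diets the log2 fold change was 0.03 (95% interval -0.31 to 0.36), the interval again inside 1.5-fold. Leaving out high salt library 17 or 21, or normal salt library 10 or 12, turned it to between -0.01 and -0.05.

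Of the recruitment genes, the chemokine Ccl2 ran from 4.65 through 6.65 to 10.5 CPM with high salt and from 4.92 through 6.20 to 9.96 CPM on normal salt. High salt libraries 13, 15 and 21 and normal salt library 18 lay above the other 10 libraries, which reached at most 7.83 CPM. Its log2 fold change was 0.12 (95% interval -0.36 to 0.59). It was 0.03 without high salt library 15 or without high salt library 21, and 0.23 without normal salt library 18.

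Icam1 was the steadiest of the 7 genes. It ran from 39.4 through 47.0 to 58.5 CPM with high salt and from 35.8 through 44.8 to 58.7 CPM on normal salt. Highest over lowest library was only 1.64, and neither diet lay apart from the other. Its log2 fold change was 0.10 (95% interval -0.18 to 0.37), inside 1.5-fold. Single omissions moved it to between 0.05 (without high salt library 13) and 0.17 (without normal salt library 24). Vcam1 ran from 19.96 through 42.1 to 66.8 CPM with high salt and from 25.4 through 38.2 to 44.8 CPM on normal salt. As with Spp1, the high salt group enclosed the normal salt group, with library 23 now the highest and library 21 the lowest. The SD was 16.9 CPM with high salt and 7.34 CPM on normal salt (n = 7 each), again not tested. The log2 fold change was 0.23 (95% interval -0.25 to 0.70), and it was 0.36 without high salt library 21 and 0.09 without high salt library 23.

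For 6 of the 7 genes the 95% interval of the diet difference excluded a 2-fold rise or fall, the exception being Havcr1. With edgeR the interval excluded 1.5-fold for Lcn2, Spp1, Clu and Icam1. Over all genes tested these shares were 87.1% and 59.5%. The standard errors of these estimates had a median of 0.21 for the panel and 0.18 for all genes. In the authors' deposited table the log2 fold of the diet means was -0.20 for Havcr1, 0.06 for Lcn2, -0.02 for Spp1, 0.03 for Clu, 0.12 for Ccl2, 0.10 for Icam1 and 0.23 for Vcam1.

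**Figure D2:**
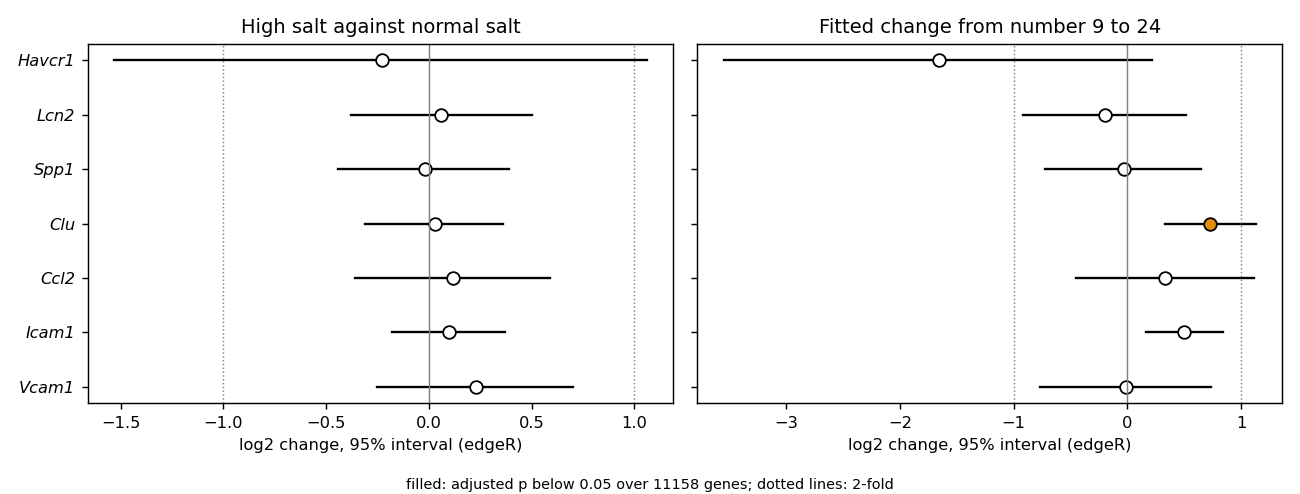
Log2 change with its 95% interval (edgeR) for each gene between the diets (left) and from sample number 9 to sample number 24 with diet in the model (right), with filled points for an adjusted p below 0.05 and dotted lines at 2-fold. Every diet interval spans 0, that of Havcr1 being the widest (-1.53 to 1.06), and Clu is the 1 filled point (0.73).

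The diet comparison was also made within ranges of the sample number, since the number and not the diet ordered many genes. In numbers 9 to 16 (4 libraries a diet) and 17 to 24 (3 a diet) the log2 fold changes of Ccl2 were 0.35 and -0.18, those of Icam1 0.21 and -0.03, and those of Vcam1 -0.05 and 0.58. Lcn2 stood at -0.12 and 0.31, Clu at 0.07 and -0.03, Havcr1 at -0.47 and 0.29, and Spp1 at -0.01 and -0.06. The sign thus differed between the ranges for each gene but Spp1, and how often it did so over all genes was not counted. None of these values passed the test within its range (edgeR, lowest adjusted p = 0.957), and the difference between the ranges was not itself tested.

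Along the sample number, 1 of the 7 genes passed the test. This was Clu, where 12.7% of all genes (1418 of 11158) passed, so the share among the 7 is near the background. Of all genes 6.97% were called higher and 5.74% lower at higher numbers. At an unadjusted p below 0.05 edgeR listed Clu and Icam1, 2 of the 7, beside 32% of all genes. Clu lay between 246.9 and 366.7 CPM in the 8 libraries numbered 9 to 16, with a median of 348 CPM. In the 6 libraries numbered 17 to 24 it lay between 339.3 and 519.5 CPM, with a median of 419.6 CPM. High salt library 23, at 339.3 CPM, was the only one of the later libraries inside the range of the earlier ones. From number 9 to number 24 the fitted log2 change with diet in the model was 0.73 ± 0.19 (SE; 95% interval 0.33 to 1.13; edgeR, adjusted p = 0.0246), a 1.66-fold rise.

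The rise of Clu had the same sign on both diets, at 0.90 over the 7 normal salt libraries and 0.54 over the 7 high salt libraries (edgeR, adjusted p = 0.124 and 0.461). No gene in the table passed within either diet alone (edgeR, with 2522 genes at an unadjusted p below 0.05 on normal salt and 1419 on high salt). A test of whether the slope differed between the diets gave -0.33 for Clu (95% interval -1.14 to 0.49), and 0 of 11158 genes (0%) passed this interaction test, with 213 (1.91%) at an unadjusted p below 0.05. The call of Clu was at the edge of the threshold. It was lost on leaving out high salt library 9 (adjusted p = 0.0638), high salt library 21 (0.0593), normal salt library 10 (0.0755), normal salt library 12 (0.0523) or normal salt library 22 (0.0686), with fitted changes of 0.62 to 0.70. Over all single omissions its adjusted p ran from 0.00488 to 0.0755.

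Icam1 lay just outside the threshold. Its 8 earlier libraries ran from 35.8 to 58.5 CPM (median 42.0) and its 6 later ones from 44.8 to 58.7 CPM (median 54.8). High salt library 13 was the highest of the earlier libraries, at 58.5 CPM, and the 2 ranges overlapped. The fitted log2 change was 0.50 ± 0.16 (SE; 95% interval 0.16 to 0.84; edgeR, adjusted p = 0.053). Without high salt library 13 it was 0.55 (adjusted p = 0.0344). The call was also gained without high salt library 23 (0.56, adjusted p = 0.042), without normal salt library 16 (0.49, adjusted p = 0.049), and with DESeq2 (0.49, adjusted p = 0.0315). Over all single omissions its adjusted p ran from 0.0344 to 0.124.

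The remaining genes showed no trend that passed. Havcr1 had the most negative fitted change, -1.66 (95% interval -3.55 to 0.22; edgeR, adjusted p = 0.209), and without normal salt library 12 it was -1.02. Ccl2 had a fitted change of 0.33 (95% interval -0.45 to 1.11), which was 0.12 without high salt library 21 and 0.61 without high salt library 23. The fitted change was -0.20 for Lcn2 (-0.92 to 0.52), -0.03 for Spp1 (-0.72 to 0.65) and -0.01 for Vcam1 (-0.77 to 0.74). The signs of Lcn2, Spp1 and Vcam1 turned when single libraries were left out. What the number stands for, and whether it follows the tissue content of the libraries, was not tested.

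Within a diet, the libraries differed in these genes about as much as in other genes or more. The SD of log2 CPM within a diet was 0.34 in the median gene. Vcam1 stood at 0.48, beside a median of 0.25 over the 200 genes nearest to it in level. The same SD was 0.41 for Spp1 (0.28 over its 200 neighbours), 0.42 for Lcn2 (0.27), 0.32 for Clu (0.27), 0.44 for Ccl2 (0.39) and 1.19 for Havcr1 (0.68). The Havcr1 SD includes normal salt library 16, with 0 counts, whose log2 CPM of -2.97 is set by the prior count of 2. Icam1, at 0.24, was the 1 gene below its neighbours (0.26). For both Spp1 and Vcam1, high salt libraries 21 and 23 held the extremes.

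**Figure D3:**
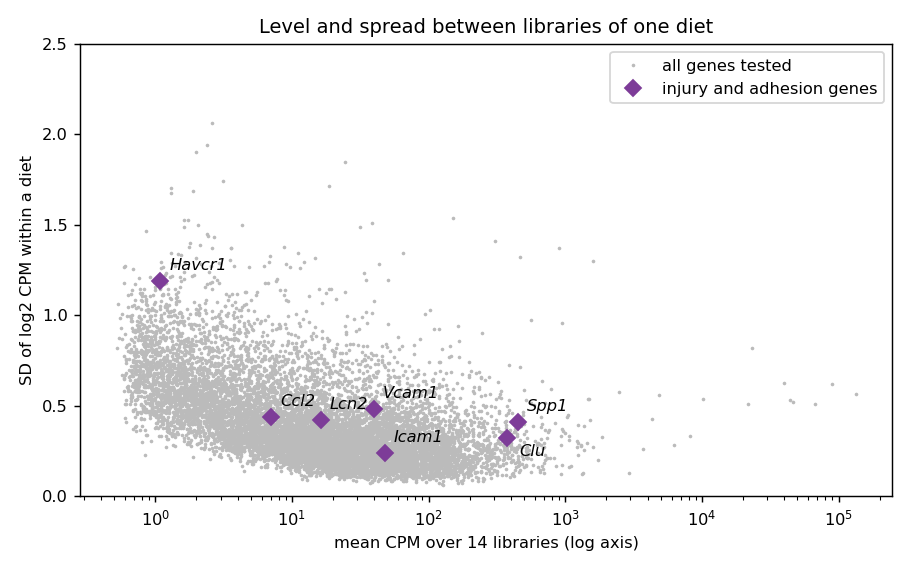
SD of log2 CPM between libraries of the same diet (vertical axis) against mean CPM (horizontal log axis) for all 11158 genes tested (grey) and for the 7 genes (diamonds). Havcr1 sits high at low level (SD 1.19, with 0 counts in normal salt library 16). Icam1 sits lowest of the 7 (0.24), and Vcam1 (0.48) lies above the median of genes near its level (0.25).

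The genes did not vary as 1 block. Of the 21 pairs, Spp1 with Lcn2 had the highest and Spp1 with Vcam1 the lowest r, and both are described because of those values. Spp1 and Lcn2 went together: high salt library 21, normal salt library 14 and high salt library 15 were the 3 highest in both. Over the 14 libraries their log2 CPM had a Pearson r of 0.78 and a Spearman rho of 0.70. Of the other genes tested, 0.296% had an r with Spp1 at least as high. As the pair was picked from 21 for its r, this share does not measure how unusual it is. Without high salt libraries 21 and 23, the farthest from the median of Spp1, r was 0.62 over 12 libraries. It was 0.95 on high salt and 0.62 on normal salt. These values describe libraries that share the scaling. Neither Spp1 nor Lcn2 had a trend with the number that passed (fitted changes -0.03 and -0.20).

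Spp1 and Vcam1 went opposite ways. High salt library 21 was the highest of 14 in Spp1 and the lowest in Vcam1 (19.96 CPM), and high salt library 23 was the reverse (66.8 CPM of Vcam1). Over 14 libraries r was -0.69 and rho -0.65, and 0.708% of the other genes had an r with Spp1 as low or lower. This pair too was picked for its r, so the share is a description only. Without these 2 libraries r was -0.31 and rho -0.44, so much of the relation rests on them. On high salt r was -0.90 and on normal salt 0.06, a difference that was not tested.

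**Figure D4:**
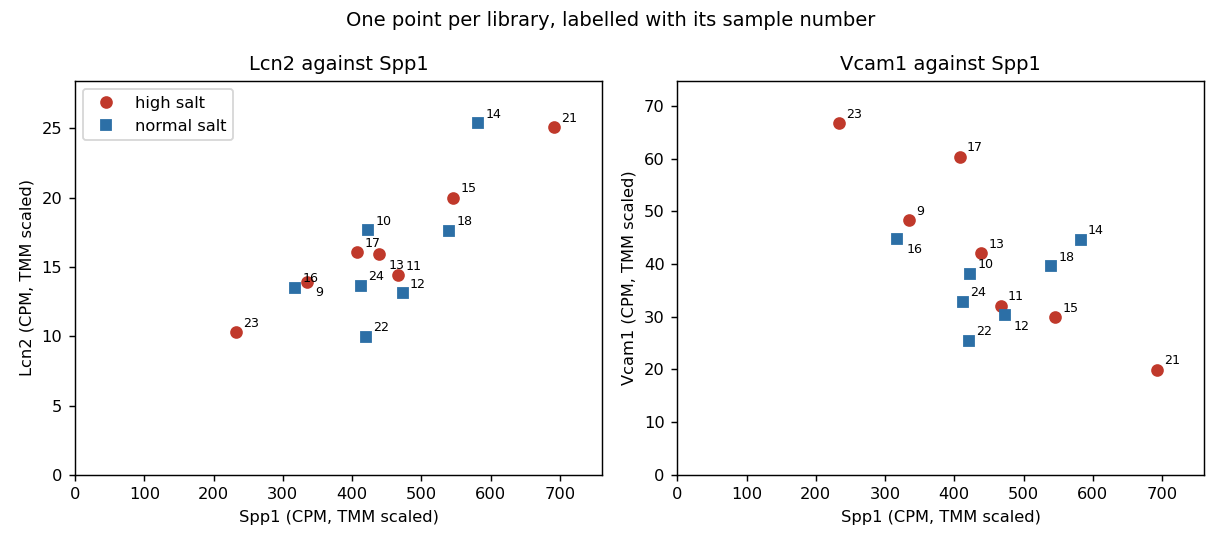
Lcn2 (left) and Vcam1 (right) against Spp1, all in CPM after TMM scaling on linear axes from 0, with 1 point per library labelled by its sample number. The 3 libraries with the most Spp1 have the most Lcn2, and Vcam1 is 66.8 CPM in high salt library 23 and 19.96 CPM in high salt library 21.

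Icam1 and Vcam1, the paired adhesion genes, showed little relation over all libraries (r = -0.25, rho = -0.25, n = 14). By diet, r was -0.16 on high salt and -0.60 on normal salt, a difference that was not tested. Normal salt library 22 and high salt library 21 were among the 4 highest in Icam1 and were the 2 lowest in Vcam1. Clu and Icam1 had an r of 0.62 and a rho of 0.49 (r 0.51 on high salt and 0.70 on normal salt). Of the other genes, 15.3% had an r with Clu of 0.62 or more. The fitted change with the number was positive in both (0.73 and 0.50), and its part in this r was not tested. Among the libraries, high salt library 21 was at or near an end in several genes: of the 7 it was the highest in Spp1 and Ccl2, the second highest in Lcn2 and Clu, and the lowest in Vcam1. This library also had counts for the fewest genes (12499) and was the highest of 14 for 11.9% and the lowest for 12.2% of all genes tested. It was not the most extreme over all genes: normal salt library 10 was the highest for 14.7% and the lowest for 14.1%, and normal salt library 22 was the highest for more genes than either. In 0 of 14 groups (7 genes on 2 diets) did the gap between an end library and its neighbour pass Dixon's 95% limit, a set share of the group's range.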

How the data were processed

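The authors deposited raw counts per gene, whole numbers for 12934 rat Ensembl IDs, and a normalized signal, which is each count divided by 1 factor per library. Their deposited table adds the mean of each diet, a signed ratio or fold between the means, and its log2. Per the submitters' processing notes, DESeq2 1.18.1 and R 3.4.3 were used. These notes also list the mouse build GRCm38. The IDs are rat IDs, so no coordinates are given in that build, and those of the promoters are from GRCr8. Aligner, counter, annotation and molecular identifiers: not given in the sources used here. Counts may therefore be of reads or of molecules. Per the labels' protocols, the libraries were QuantSeq 3′ FWD libraries.

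Both tests were fitted to the whole count table with edgeR 4.0.16 in R 4.3.3 (glmQLFTest after robust glmQLFit, with TMM scaling and filterByExpr at a minimum count of 10). The filter removed 1776 genes and left 11158, and all 7 panel genes passed it. The fits were diet alone, diet plus sample number, and their interaction. Intervals of 95% were derived from each gene's F value. Calls required an adjusted p (Benjamini-Hochberg, over all genes tested) below 0.05. Log2 CPM used a prior count of 2. The pipeline was tested on simulated counts, drawn separately for each gene. Such counts cannot show how the tests behave where libraries differ in many genes together. Alternatives used RLE factors, no filter or 5 CPM in 7 libraries, DESeq2 1.42.0, limma 3.58.1, covariates, number ranges and the omission of each library. Omitting 2 libraries at once was added after the data were seen. No libraries were identical: chi-square per degree of freedom lay between 17.2 and 359 over 42 pairs of the same diet.

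The 7 genes, the lists and the tests were chosen with earlier results of these data known. The rule for named genes was to name the 7 genes by symbol, the gene most like each of them in log2 CPM (at most 4 IDs printed), and sets of context and cell type genes where their IDs could be matched. Of the context genes 0 matched, so those sets were not used. Promoters were matched by symbol to RefSeq (GRCr8). The NF-kappaB letters and TATAAA were chosen after the data were seen.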

Additional observations from a re-analysis of the deposited data

How the results depend on the processing

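The diets gave 0 called genes under each alternative run, including RLE factors, both other filters, DESeq2, limma, the number as a covariate and the omission of each library. No panel gene passed the diet test in any of them, though Havcr1 was removed by the filter at 5 CPM and so was not tested there. The diets share no sample number, so the labels name no pairs. In the replicate block of consecutive numbers 0 genes were called, and only Havcr1 turned, to 0.01. Genes at an unadjusted p below 0.05 moved from 202 to 665 in that block, 562 with limma voom, 468 with the number as a covariate, 375 in numbers 9 to 16, 343 with DESeq2, 312 without high salt 21 and 23, and 131 with the filter at 5 CPM. Single omissions gave 131 (without normal salt 10) to 597 (without normal salt 22), and 334 without high salt 9.

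Signs of the small diet estimates were not stable, and the cause was not tested. Havcr1 turned to 0.40 with limma voom, 0.35 and 0.48 with limma-trend (1 or 0.5 added), 0.29 in numbers 17 to 24, 0.02 without high salt libraries 21 and 23, and 0.16 without normal salt libraries 12 and 16. Lcn2 turned to -0.18 with limma voom, -0.12 in numbers 9 to 16, and -0.03 without normal salt libraries 12 and 16. With limma voom the Lcn2 interval ran from -0.59 to 0.24 and no longer excluded a 1.5-fold fall. Clu turned to -0.03 in numbers 17 to 24, -0.06 without high salt 21 and 23 and -0.04 without normal salt 12 and 16. Vcam1 was -0.05 in numbers 9 to 16, and Ccl2 and Icam1 were -0.18 and -0.03 in numbers 17 to 24. Over single omissions Havcr1 ran from -0.48 to 0.42, Lcn2 from -0.05 to 0.21, Spp1 from -0.15 to 0.09 and Clu from -0.05 to 0.13. On the scale of mean log2 CPM the same ranges were -0.23 to 0.60, -0.04 to 0.19, -0.19 to 0.07 and -0.06 to 0.12, and Ccl2 ran from -0.02 to 0.17.

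The count of genes with a trend was 2167 with DESeq2, 649 without normal salt libraries 12 and 16, and 0 in either diet alone, where 7 libraries remain. Over single omissions it ran from 451 to 2118: 451 without normal salt 22, 513 without normal salt 10, 762 without normal salt 12, 547 without high salt 9 and 926 without high salt 21. The trend of Clu ran from 0.62 to 0.95 over these omissions and was 0.70 (edgeR, adjusted p = 0.0646) without normal salt 12 and 16. Icam1 ran from 0.44 to 0.56, Lcn2 from -0.55 to 0.03, Spp1 from -0.39 to 0.29 and Vcam1 from -0.50 to 0.21. In high salt libraries alone Lcn2, Spp1 and Vcam1 were 0.22, 0.08 and 0.29. The interaction of Spp1 was -0.10 with limma voom, against 0.26, and limma voom also called 0 genes for the interaction, with 110 at an unadjusted p below 0.05. Havcr1 had a median of 11.5 counts per library, and its variance between libraries was 5.09 (high salt) and 20.8 (normal salt) times that of counting. Over all genes tested the median of this ratio was 10.5 on high salt and 11 on normal salt. The part of depth was not tested.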

Other observations

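For the genes below no symbol was available, and each was picked for its likeness to a panel gene among 11151 other genes, so the values describe these 14 libraries only. The gene most like Clu was ENSRNOG00000000831, whose log2 CPM had a Pearson r of 0.96 and a Spearman rho of 0.89 with that of Clu over the 14 libraries, at a mean of 8.26 CPM. Vcam1 was followed most closely by ENSRNOG00000020486 (r = 0.95, rho = 0.92, mean 12.1 CPM). Spp1 was followed by ENSRNOG00000007284 (r = 0.87, rho = 0.80, mean 11.6 CPM). For Icam1 it was ENSRNOG00000009351 (r = 0.87, rho = 0.90, mean 56.1 CPM). The libraries share their scaling and, for many genes, the trend with sample number. The highest r for Lcn2, Ccl2 and Havcr1 were lower, at 0.82, 0.83 and 0.78.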
